A study of Homo sapiens with 14 samples.

Results

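The genes described here are 32 members of the unfolded protein response and of the protein-folding machinery of the endoplasmic reticulum (ER), taken by gene symbol from a fixed list and measured by 1 probe set per gene, the one with the highest mean over the 14 arrays. Of the 32, 31 had a probe set that names that gene alone, out of 19775 genes on the array. SYVN1, a ubiquitin ligase of ER-associated degradation, had only a probe set that also names a microRNA gene, and no value is given for it. ERO1B, an oxidase that supplies disulfide bonds, lay below the filter on low values, so 30 members were tested among 13137 genes.

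HepG2 is a cell line grown from a human liver tumour that still makes large amounts of secreted plasma proteins. Its cells were transfected either with miR-124, a small RNA abundant in neurons that lowers messenger RNAs carrying a matching site, or with a negative control whose sequence is not given in the sources used here. Total RNA was taken 4, 8, 16, 24, 32, 72 and 120 h after each transfection and put on 1 one-colour oligonucleotide array per transfection and time, so each transfection has 7 arrays. The samples used here hold no untransfected cells and no repeat of a time, and no label says whether the arrays came from separate cultures.

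Proteins bound for secretion enter the ER through the Sec61 channel, are folded there by chaperones and disulfide enzymes, and leave in COPII-coated vesicles, while those that fail to fold are sent back to the cytosol for degradation. When unfolded protein builds up, the sensors IRE1 (gene ERN1), ATF6 and PERK (gene EIF2AK3) start the unfolded protein response, in which spliced XBP1 and cleaved ATF6 raise the genes of this machinery. Hepatocytes carry a heavy secretory load and rely on this system. XBP1 splicing and ATF6 cleavage are not measured by these arrays.

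Many of these genes carry the ER stress element in their promoters, through which ATF6 and XBP1 act, and it is shown here because it is the sequence that the group is known to share. RefSeq promoters on GRCh38.p14, 250 bases before to 50 bases after each listed start, were matched by symbol for 28 of the 32 members, and the others were PDIA3, DERL1, DERL3 and SEC24D. The element (ERSE, the letters CCAAT, then 9 bases of any kind, then CCACG) was found on either strand in 9 of 28 members and in 25 of 27305 genes overall (0.0916%). A shorter form (ERSE-II, the letters ATTGG, then 1 base of any kind, then CCACG) was found in 3 of 28 and in 19 of 27305 (0.0696%). The opening letters of the shorter form are the reverse complement of those of the longer one, and both end alike. These elements were defined on promoters of such genes, so their presence is background and not a result. Capitals mark the fixed letters of each element, read on the strand where it lies, with its distance before the start.
HSPA5, 66 to 48 bases before the start: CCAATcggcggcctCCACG
CRELD2, 80 to 62 bases: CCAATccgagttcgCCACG
XBP1, 52 to 34 bases: CCAATcgcggagggCCACG
HSP90B1, 194 to 176 bases: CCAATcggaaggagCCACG
HSP90B1, 89 to 71 bases: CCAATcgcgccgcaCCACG
SERP1, 232 to 214 bases: CCAATtcgctgtctCCACG
CALR, 225 to 207 bases: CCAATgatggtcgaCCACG
CANX, 151 to 133 bases: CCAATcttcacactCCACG
PDIA6, 86 to 68 bases of its second listed start: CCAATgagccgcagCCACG
ERO1B, 243 to 225 bases: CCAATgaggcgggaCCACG
SDF2L1, 188 to 178 bases: ATTGGtCCACG
HERPUD1, 117 to 107 bases: ATTGGgCCACG
HYOU1, 185 to 175 bases: ATTGGaCCACG
HYOU1, 79 to 69 bases: ATTGGaCCACG

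The whole window is shown for HSPA5 (chr9:125241294-125241593, minus strand), the central chaperone of the group, for SDF2L1 (chr22:21642052-21642351, plus strand), the member with the lowest ratio at 72 h, and for CRELD2 (chr22:49918384-49918683, plus strand), which has a full element. Capitals again mark the element, which reads on the opposite strand in SDF2L1 and CRELD2.
HSPA5: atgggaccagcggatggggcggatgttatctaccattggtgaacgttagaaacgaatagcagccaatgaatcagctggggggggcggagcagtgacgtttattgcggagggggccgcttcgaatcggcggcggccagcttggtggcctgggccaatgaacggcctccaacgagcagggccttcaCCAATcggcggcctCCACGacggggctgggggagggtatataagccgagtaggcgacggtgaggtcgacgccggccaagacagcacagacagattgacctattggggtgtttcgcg
SDF2L1: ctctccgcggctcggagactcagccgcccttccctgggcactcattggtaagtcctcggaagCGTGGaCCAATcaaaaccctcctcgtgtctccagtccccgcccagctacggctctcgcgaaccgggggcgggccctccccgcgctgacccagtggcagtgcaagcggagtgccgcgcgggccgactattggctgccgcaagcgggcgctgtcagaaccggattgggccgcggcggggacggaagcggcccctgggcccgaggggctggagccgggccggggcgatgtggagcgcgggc
CRELD2: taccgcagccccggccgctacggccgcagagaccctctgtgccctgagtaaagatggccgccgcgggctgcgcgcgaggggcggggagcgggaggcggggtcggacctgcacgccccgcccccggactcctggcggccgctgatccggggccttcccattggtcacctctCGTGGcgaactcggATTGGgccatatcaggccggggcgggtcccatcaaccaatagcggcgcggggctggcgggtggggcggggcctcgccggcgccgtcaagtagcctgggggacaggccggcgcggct
Another site linked to XBP1, with the core TGACGTGG, was found in HYOU1, where it overlaps the farther ERSE-II, and in DNAJC10, against 253 of 27305 genes (0.927%). The composite ATF4 site TGATGNAAT was in none of the 28 and in 333 of 27305 (1.22%). A match or its absence says only that these letters are or are not in the window.

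The liver origin of the cell line showed in its marker genes. The 8 hepatocyte markers with a probe set of their own (ALB, AFP, APOA1, APOB, TTR, TF, SERPINA1 and FGB) were all above the filter, with a mean log2 level of 12.8 to 13.2 with miR-124 and 12.8 to 13.3 in the control. At 72 h 7 of these 8 were below control (median −0.22), and FGB was called lower (−0.58). Among 4 blood cell markers PTPRC and CD14 were below the filter, HBB was above it (median 8.02), and CD3D was called higher with miR-124 at 72 h (2.05). Of 6 fibroblast and endothelial markers 4 were above the filter, and PECAM1 was called higher at 72 h (0.64). The mean of the 4 blood cell markers ran from 6.48 to 7.14 with miR-124 and from 6.36 to 6.64 in the control. That of the 6 fibroblast and endothelial markers ran from 6.45 to 6.67 and from 6.41 to 6.59. For 18S ribosomal RNA (mean of 3 probe sets) the miR-124 array of 4 h read 11.1, and the other 13 read 7.31 to 9.20. The part of these signals in the results was not tested, and counts without 4 h are given below.

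The members' messenger RNAs had a median close to control for the first 32 h, were below control for most members at 72 h and had a median near control again at 120 h. In order of time from 4 to 32 h, the 30 tested members had median log2 ratios (miR-124 minus control) of −0.04, −0.01, −0.03, −0.08 and −0.05. At 72 h the median was −0.52, and at 120 h it was 0.03. Over all 13137 genes the median stayed between −0.02 and 0.05 at the 7 times. At 72 h 27 of 30 members were below control, as were 6265 of all 13137 genes. Of the 30, 15 were lower by at least 0.5 on the log2 scale (15.2% of all genes) and 8 by at least 2-fold (5.92% of all genes). At 120 h 14 of 30 were below control (6760 of all 13137 genes) and none by 2-fold (1.16% of all genes). Both arms differed between the 32 h and 72 h arrays. The miR-124 level was lower at 72 h in 23 of 30 members (median −0.35), and the control level was higher in 22 of 30 (median 0.15). Over all genes these medians were −0.01 and 0.01. For the tests at 72 h and 120 h, fell and rose mean a level below or above the control of that time.

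**Figure D1:**
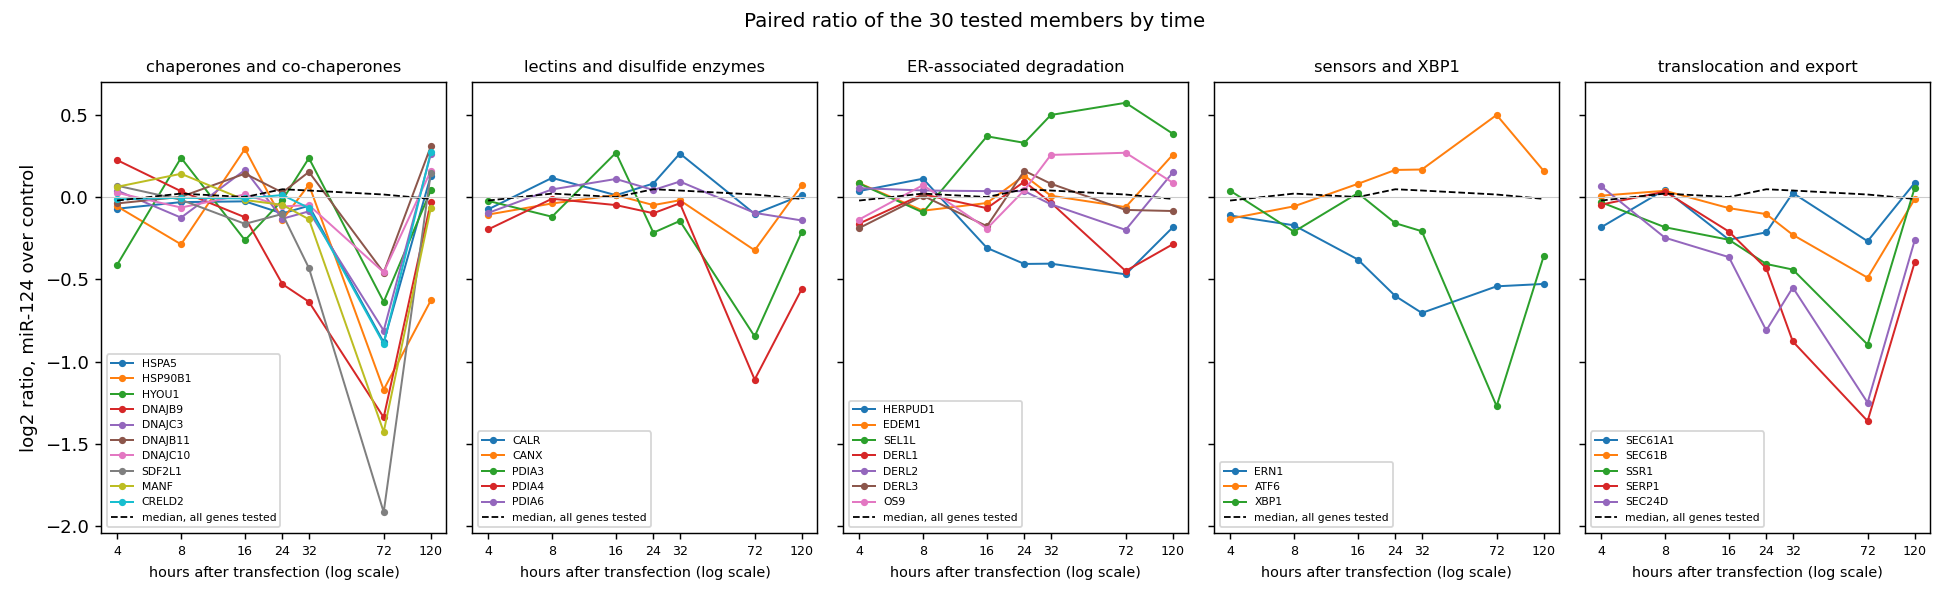
Log2 ratio of miR-124 over control (y axis) for each tested member at the 7 times (x axis, hours on a log scale), in panels by role, with the median of all genes tested as a dashed line. Most chaperones dip at 72 h and lie near 0 at 120 h, whereas SEL1L is above 0 from 16 h on and ERN1 is below 0 at all 7 times.

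At 72 h 20 of 30 members fell and 2 rose (limma adjusted p under 0.05), where 19.8% of all genes tested were lower and 17.4% higher (37.2% in either direction). The members' median effect was −0.52, against a median ratio of 0.02 over all genes. At 120 h 3 members were lower and 1 higher, where 8.69% of all genes were lower and 14.5% higher (23.2% in either direction). Not all of the 4 calls at 120 h were firm. ERN1 and SEL1L were lost without 24 h, SEL1L without 32 h or with no filter, HSP90B1 with the mean of the probe sets, and HSP90B1 and SEL1L without time as a block. There is a single pair of arrays at each of these times, so the error is that of the ratios at the 5 earlier times, and the test assumes that the 72 h and 120 h pairs vary like those. The spread of the ratio over all genes was 0.61 (SD) at 72 h against 0.15 to 0.34 at the 5 earlier times.

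**Figure D2:**
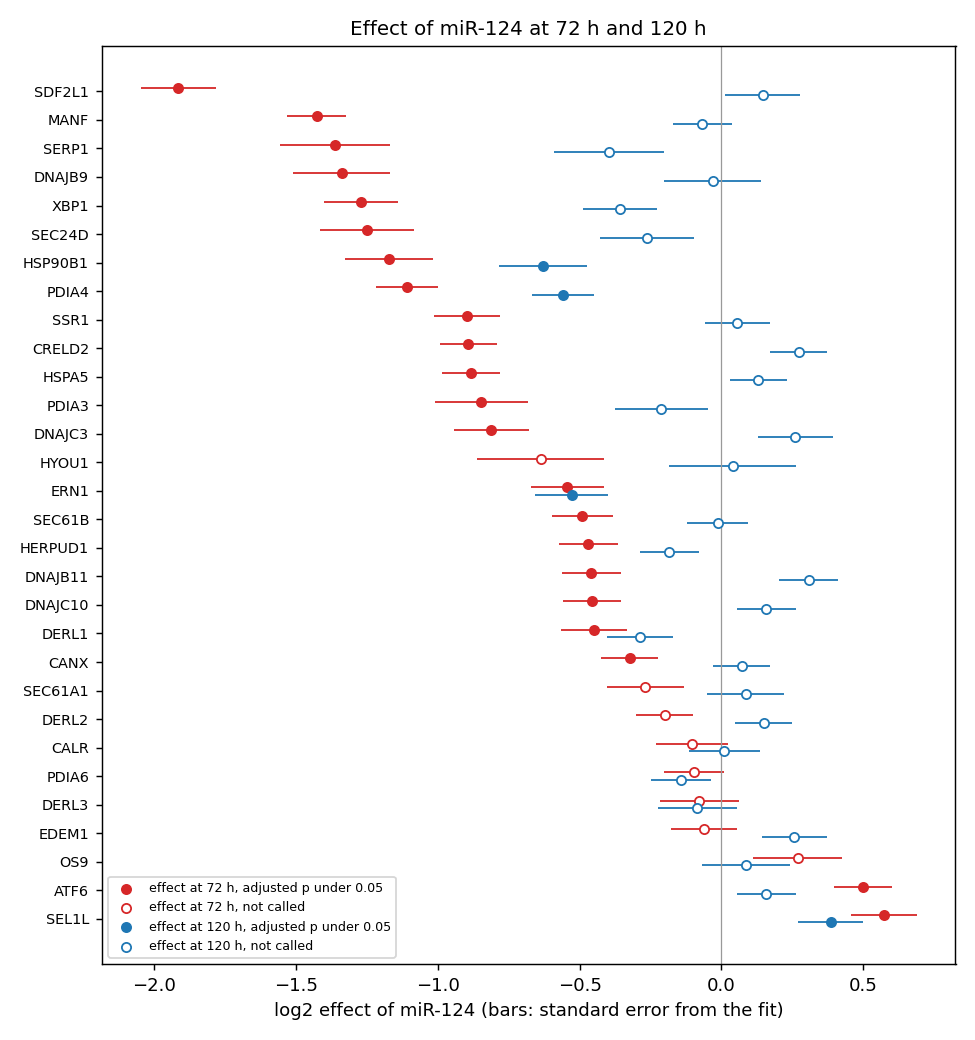
Effect of miR-124 at 72 h (red) and 120 h (blue) on the log2 scale (x axis) for the 30 tested members (y axis), with standard errors from the limma fit and filled points for adjusted p under 0.05. From SDF2L1 at −1.92 to CANX at −0.32 the called 72 h points lie left of 0, and of the 120 h points only HSP90B1, PDIA4, ERN1 and SEL1L are filled.

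The chaperones and their partners were the most uniform role, with 9 of 10 lower at 72 h (19.8% of all genes). At 120 h 1 of 10 was lower (8.69% of all genes). In the difference between those times 8 of 10 were called, all with the 120 h effect the higher (8.05% of all genes). HSPA5 (BiP), the ER's main Hsp70 chaperone and the brake on all 3 sensors, was at 12.3 to 12.8 in the 7 control arrays (median 12.6). With miR-124 it was at 11.7 at 72 h and between 12.4 and 12.7 at the other times. The 72 h array was thus the lowest of all 14, and the other 13 overlapped. For the other HSPA5 probe set the 72 h ratio was −0.40, and the values given here are those of the chosen one. The effect at 72 h was −0.88 ± 0.10 (1.84-fold lower, n = 1 pair, limma adjusted p = 0.000321), and at 120 h it was 0.13 ± 0.10 (adjusted p = 0.39).

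SDF2L1, a partner of the BiP co-chaperones, showed the lowest ratio of the group. Its level was 9.37 in the control and 7.45 with miR-124 at 72 h, and 8.44 and 8.59 at 120 h. The effect at 72 h was −1.92 ± 0.13 (3.77-fold lower, adjusted p = 5.08e-05). MANF, a secreted survival factor that also stabilises BiP's clients, was at 11.4 in the control and 10.00 with miR-124 at 72 h (−1.43 ± 0.10, 2.69-fold lower, adjusted p = 6.15e-05), and the arms were 0.07 apart at 120 h. For MANF the arms lay within 0.14 of each other at the other times, whereas SDF2L1 was already 0.43 below control at 32 h.

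DNAJB9 (ERdj4), a BiP co-chaperone that holds IRE1 in check, had ratios below control from 16 h. Its ratio was −0.53 and −0.64 at 24 and 32 h, then −1.34 at 72 h (2.53-fold lower, SE 0.17, adjusted p = 0.000547), and −0.03 at 120 h. CRELD2, a secreted ER stress protein with disulfide-handling motifs, was within 0.07 of control at the 5 earlier times and was at 9.15 against 10.04 at 72 h (−0.89 ± 0.10, adjusted p = 0.000308). DNAJC3 (p58IPK), a co-chaperone and inhibitor of PERK, was lower by 1.76-fold at 72 h (−0.81 ± 0.13). The changes of DNAJB11 and DNAJC10, a co-chaperone and an ER reductase, were smaller by the chosen probe sets, at −0.46 ± 0.10 each. The other DNAJC10 probe sets above the filter read −0.83 to −0.99 at 72 h, so the size for this gene depends on the probe set.

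HSP90B1 (GRP94), the ER's Hsp90, differed from the other chaperones in that it was called low at both times. At 72 h it read 9.53 with miR-124 and 10.7 in the control (−1.17 ± 0.16, adjusted p = 0.000633) and at 10.1 against 10.8 at 120 h (−0.63 ± 0.16, adjusted p = 0.0219). The test of the difference between those times was not passed (0.54 ± 0.22, adjusted p = 0.154), and its probe set is of a kind that can bind related transcripts. The other HSP90B1 probe set read −0.72 and −0.78, and with the mean of both neither call was kept (adjusted p = 0.187 and 0.354). HYOU1, the large Hsp70 relative that frees BiP of ADP, was at −0.64 ± 0.22 at 72 h and did not pass (adjusted p = 0.0552), though it did without 4, 8, 16 or 32 h, with centred arrays or without time as a block. Its ratio had already ranged from −0.41 to 0.24 at the 5 earlier times.

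**Figure D3:**
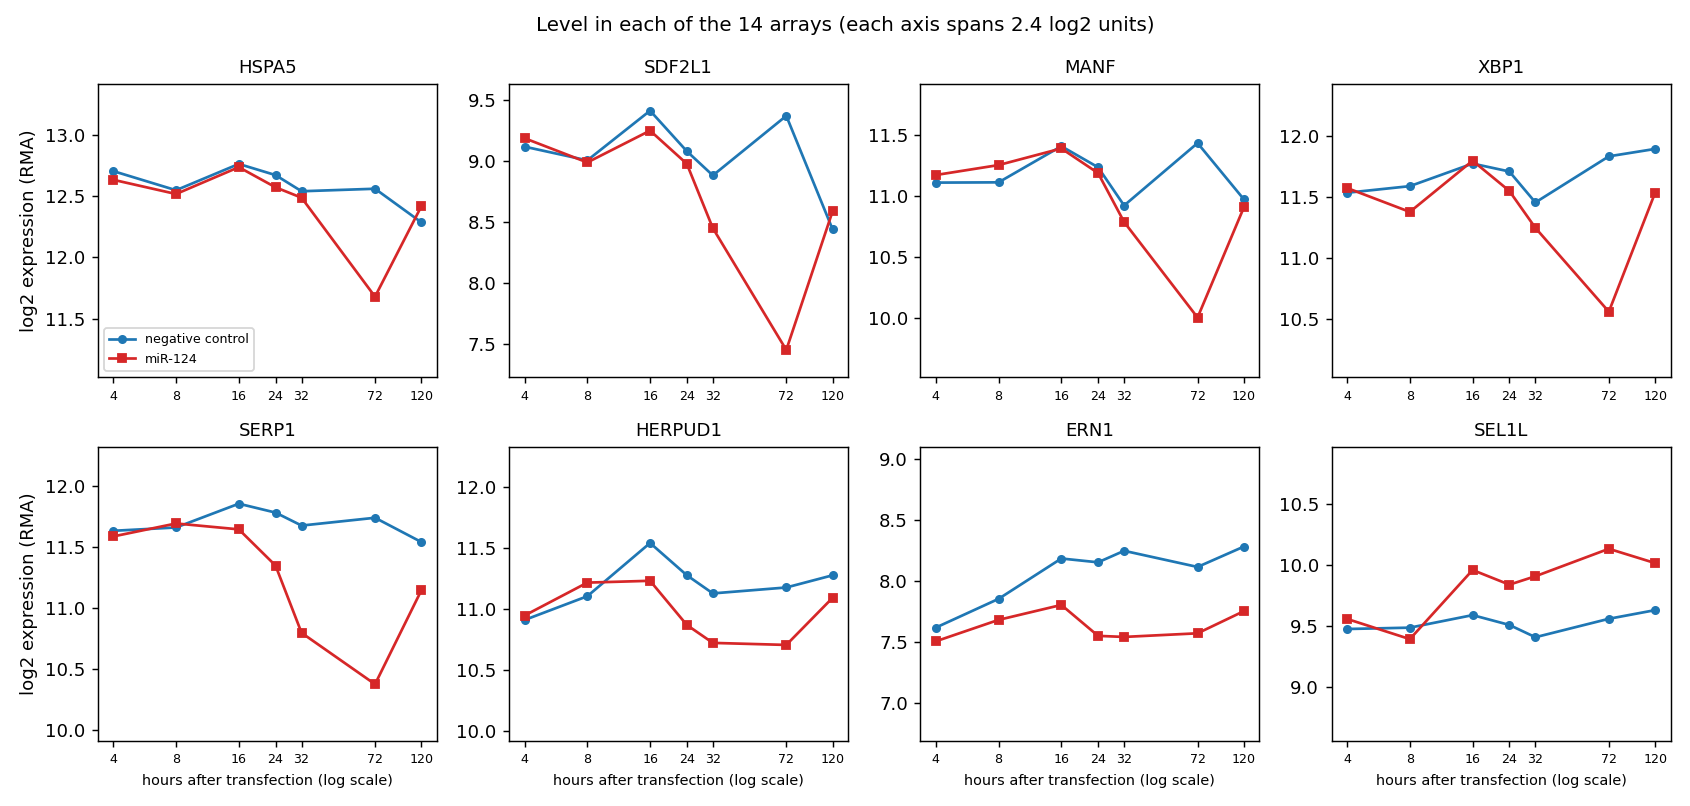
Log2 expression (y axis, each panel 2.4 units tall) of 8 members at the 7 times (x axis, hours on a log scale) on the control arrays (blue circles) and the miR-124 arrays (red squares), 1 array per point. In the upper row the arms are farthest apart at 72 h, when SDF2L1 stands at 7.45 with miR-124 and 9.37 in the control. SDF2L1 is already below control at 32 h. In the lower row the arms part from 16 h on.

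Among the lectin chaperones and disulfide enzymes 3 of 5 tested members were lower at 72 h (19.8% of all genes). PDIA4 (ERp72), a disulfide isomerase, fell at both times, reading 9.24 and in the control 10.3 at 72 h (−1.11 ± 0.11, adjusted p = 0.000182) and 9.78 and 10.3 at 120 h (−0.56 ± 0.11, adjusted p = 0.00898). PDIA3 (ERp57), the isomerase that works with the lectins, was at 11.4 against 12.3 at 72 h (−0.85 ± 0.16, adjusted p = 0.00392), and at −0.21 ± 0.16 at 120 h. CANX (calnexin), the membrane-bound lectin, was lower by 1.25-fold at 72 h (−0.32 ± 0.10, adjusted p = 0.0348), a call lost without 24 h or without 32 h (adjusted p up to 0.0796 over the alternatives). Its 3 other probe sets above the filter read −0.47 to −1.33.

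CALR (calreticulin), the soluble lectin, and PDIA6, a disulfide isomerase that trims the IRE1 signal, did not pass at 72 h, each at −0.10 (adjusted p = 0.591 and 0.539). For CALR the 2 other probe sets read −0.28 and −0.63, so the probe sets of this gene disagreed in size. The chosen probe sets of CALR and PDIA6 are, like that of HSP90B1, of a kind that can bind related transcripts. ERO1B, not tested, was at 5.48 in the control and 6.46 with miR-124 at 72 h and at 5.83 and 6.85 at 120 h, ratios of 0.98 and 1.01, against 5.34 to 5.92 on all arrays up to 32 h. These ratios are opposite in sign to those of the isomerases, at a mean level below the filter of 6.19. With no filter ERO1B was called higher at both times.

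ER-associated degradation, which pulls misfolded proteins out of the ER, was mixed, with a median effect of −0.08 at 72 h. Of 7 tested members 2 were lower and 1 higher. Over all genes 19.8% were lower and 17.4% higher, so these few calls do not set the role apart. SEL1L, the adaptor of the ubiquitin ligase in this pathway, went the other way from the chaperones and early. It was at 9.84 to 10.13 with miR-124 from 16 to 120 h and at 9.41 to 9.63 in the control, with no overlap between the arms at those times. The effect in the middle window (16, 24 and 32 h) was 0.40 ± 0.08 (n = 3 pairs, adjusted p = 0.0221), at 72 h 0.57 ± 0.12 (1.49-fold higher, adjusted p = 0.00492) and at 120 h 0.39 ± 0.12 (adjusted p = 0.0454). Its 2 other probe sets above the filter were higher at 72 h too, by 0.66 and 0.56.

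HERPUD1, a membrane protein that gathers the degradation complex, was called lower from the middle window on to 72 h. In order of time from 16 to 120 h its ratio was −0.31, −0.41, −0.40, −0.47 and −0.18, with a middle effect of −0.37 ± 0.08 (adjusted p = 0.0276). The 72 h effect passed (adjusted p = 0.00754), though not without time as a block (adjusted p = 0.186) or with the mean of the probe sets (0.0609), and the 120 h effect did not (adjusted p = 0.24). DERL1, a channel-forming protein of the pathway, was at −0.45 ± 0.12 at 72 h (adjusted p = 0.0152), but its 3 other probe sets read 0.20, −0.20 and −0.14. EDEM1, which trims sugars from misfolded proteins, OS9, which reads those sugars, DERL2 and DERL3 did not pass, with effects of −0.20 to 0.27.

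The sensors moved in unlike ways. ERN1, which encodes IRE1, the kinase and nuclease that splices XBP1, was below control in 7 of 7 pairs, and from 16 h on the arms did not overlap, at 7.54 to 7.80 with miR-124 and 8.11 to 8.28 in the control. Its effect was −0.56 ± 0.08 in the middle window (1.48-fold lower, adjusted p = 0.0079), −0.54 ± 0.13 at 72 h (adjusted p = 0.0104) and −0.53 ± 0.13 at 120 h (adjusted p = 0.0208). Over all 7 pairs it was the only member called (−0.43 ± 0.08, adjusted p = 0.0499, and 0.0165 to 0.203 over the alternatives), where 0.784% of all genes were lower, 0.129% higher and 0.913% either. The call was lost without 16, 24, 32, 72 or 120 h, with no filter, with centred arrays and with the mean of the probe sets. The 2 other ERN1 probe sets above the filter did not follow it, at 0.06 and −0.05 at 72 h, and with the mean of the probe sets the 72 h call was lost.

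XBP1, the transcription factor made from the message that IRE1 splices, was at 10.6 with miR-124 against 11.8 at 72 h and at 11.5 against 11.9 at 120 h. The 72 h effect was −1.27 ± 0.13 (2.41-fold lower, adjusted p = 0.000208), and that at 120 h did not pass (−0.36 ± 0.13, adjusted p = 0.0835). ATF6, the sensor that is cut in the Golgi and enters the nucleus, was higher at 72 h, at 8.58 against 8.08 (0.50 ± 0.10, adjusted p = 0.00541). Its 2 other probe sets above the filter were higher by 0.93 and 0.82. At 72 h, then, ATF6 was higher and XBP1 lower, while ERN1 was lower by its chosen probe set, which the others did not follow. EIF2AK3, the gene of PERK, was lower at 72 h (−0.74) and is given with the PERK arm below.

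In translocation and export 4 of 5 members were lower at 72 h (19.8% of all genes), and several had ratios below control before then. SERP1 (RAMP4), a small protein of the Sec61 channel, had ratios of −0.21, −0.43 and −0.88 from 16 to 32 h, then −1.36 (2.57-fold lower, SE 0.19, adjusted p = 0.000916) and, last, −0.40. SEC24D, a cargo adaptor of the COPII coat, was at −0.37, −0.81, −0.55, −1.25 (2.38-fold lower, SE 0.17, adjusted p = 0.000644) and −0.26 at the same times. SSR1, a subunit of the translocon-associated TRAP complex, was at −0.26, −0.41, −0.44, −0.90 (SE 0.12, adjusted p = 0.000554) and 0.06, and its 5 other probe sets read −0.97 to −1.34 at 72 h.

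SEC61B, the channel's small subunit, was at 11.7 against 12.2 at 72 h (−0.49 ± 0.11, adjusted p = 0.00717), and SEC61A1, the channel itself, was at −0.27 ± 0.14 and did not pass (adjusted p = 0.167). Whether the course of the group before 72 h differed from that of the chaperones was not tested.

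In the middle window 3 of 30 members were called, ERN1 and HERPUD1 lower and SEL1L higher, where 4.36% of all genes were lower and 3.46% higher (7.83% in either direction). Without 72 h, without 120 h, or with a fit of those 6 arrays alone, 7 of 30 were called, adding DNAJB9, SEC24D, SERP1 and SSR1, all lower. The calls over all 13137 genes rose too, from 1028 to 2198 without 72 h or without 120 h and to 2164 with those 6 arrays. Without 24 h or without 32 h none was called, without 16 h only ERN1, and without 4 h or without 8 h ERN1 and SEL1L. For 4 and 8 h together, limma called 0 members and 0 of all genes (0.0%), with 0 members and 163 genes at an unadjusted p under 0.05. In the late window (72 and 120 h together) 9 of 30 were lower and 2 higher (12.6% and 16.4% of all genes, 29.1% in either direction). A fit of those 4 arrays alone called 0 of 30 members and 469 of all 13137 genes. Leaving out 72 h took the late count to 4, ERN1, HSP90B1, PDIA4 and SEL1L, and leaving out 120 h took it to 22. With 1 late pair left, these are the 120 h and the 72 h calls given above and no separate check. The late count was 7 without 4, 8, 24 or 32 h, where 2861 to 3240 of all genes were called.

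The 72 h and 120 h effects differed for 11 members, all with the 120 h effect the higher, where 8.05% of all genes were called in that direction and 2.72% in the other (10.8% in all). These were HSPA5, DNAJB9, DNAJC3, DNAJB11, DNAJC10, SDF2L1, MANF, CRELD2, XBP1, SSR1 and SEC24D. SDF2L1 had the widest difference (2.06 ± 0.19, adjusted p = 0.00295), followed by MANF (1.36 ± 0.15, adjusted p = 0.00339) and DNAJB9 (1.31 ± 0.24, adjusted p = 0.0152), and HSPA5 was at 1.01 ± 0.14 (adjusted p = 0.00596). Without time as a block 4 remained, CRELD2, DNAJB11, HSPA5 and SDF2L1, and without 24 h 7 did. ERN1 (0.01 ± 0.18), HSP90B1, PDIA4 and SEL1L, the members called at 120 h, were not among the 11. This test uses the same 72 h pair as the fall itself, so it is no separate evidence for it.

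Both arms differed between the 72 h and 120 h arrays. The miR-124 level was higher at 120 h in 25 of 30 members (median 0.33) and the control level was lower in 22 of 30 (median −0.22), and both held for 19 of 30, where they held for 28.2% of all genes. The medians over all genes were 0.00 with miR-124 and −0.01 in the control. These are single arrays with no test. SDF2L1 went from 7.45 to 8.59 with miR-124 and from 9.37 to 8.44 in the control, and DNAJC3 from 9.51 to 9.87 and from 10.32 to 9.61, so more of the change in DNAJC3 lay in the control. XBP1 went from 10.56 to 11.54 with miR-124 and stayed at 11.8 to 11.9 in the control. In the same arrays the lowest of all 14 was the 72 h miR-124 array for 19 of 30 members and for 22.0% of all genes.

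**Figure D4:**
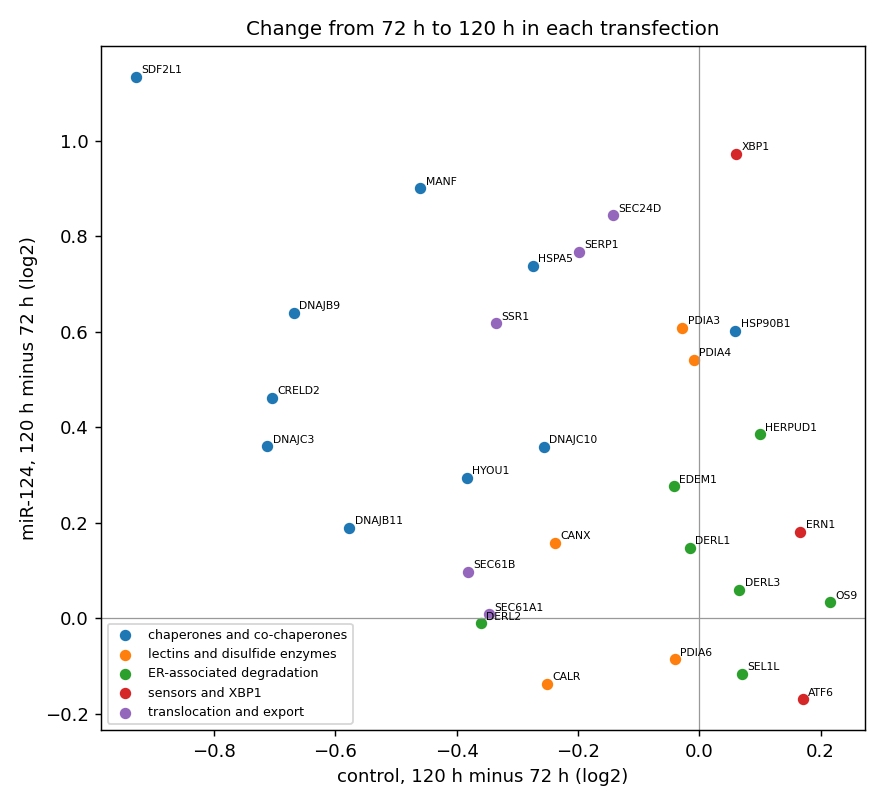
Change in log2 level from 72 to 120 h in the control (x axis) and with miR-124 (y axis) for the 30 tested members, coloured by role, 1 array per transfection and time. The upper left part, up with miR-124 and down in the control, holds 19 of 30 members, with SDF2L1 the farthest out, and XBP1 and HSP90B1 lie above the horizontal line and just right of the vertical one.

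Along the control course alone no member was called (0 of 30 by limma, with 8 at an unadjusted p under 0.05), where 2.7% of all genes rose and 5.48% fell with time (8.18% in all). Without 4 h the larger share turned, with 267 genes that rose and 208 that fell. ERN1 came nearest, at 0.12 ± 0.03 per doubling (adjusted p = 0.0503), from 7.62 at 4 h to 8.28 at 120 h. OS9 was at 0.10 ± 0.03 (adjusted p = 0.0527) and was called without 32 h, and DNAJB9 was called without 120 h.

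The fall at 72 h was seen by more than 1 probe set in most genes where that could be checked. Of the 20 members lower at 72 h, 12 had another probe set above the filter, 28 in all, of which 25 were below 0 at 72 h with a median of −0.86. The 3 above 0 belonged to PDIA3, DERL1 and ERN1. With the mean of all probe sets of a gene in place of the chosen one, 15 members were lower at 72 h and 2 were higher. DERL2 was added, and DERL1, ERN1, HERPUD1, HSP90B1 and PDIA3 were no longer called. SEC24D lay below the filter in that setting and was not tested. Without 4 h the count was 21 lower and 2 higher.

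The rest of the pathway was read from lists of other genes with related tasks. In targeting and translocation 14 of 18 tested genes fell at 72 h (median −0.81) and 1, SEC61A2, rose. SEC61A2, and SEC24C, CEBPB and CREB3 below, are named because they were called, after their values were seen. SSR3 and SSR2, further TRAP subunits, were at −1.56 ± 0.16 (adjusted p = 0.0002) and −1.08 ± 0.12, and SEC11C, a catalytic subunit of signal peptidase, at −1.01 ± 0.12. Among other ER oxidoreductases and foldases 9 of 14 were lower and none higher (median −0.47), with PPIB (cyclophilin B, a proline isomerase) at −1.12 ± 0.11, ERP44 at −0.89 ± 0.13 and the peroxiredoxin PRDX4 at −0.81 ± 0.10. In the COPII coat 6 of 11 were lower and SEC24C higher (median −0.42), with SEC13 at −1.60 ± 0.16, the GTPase SAR1B at −1.36 ± 0.12 and SEC24A at −1.25 ± 0.14.

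Genes of N-glycosylation and the glucosidase cycle were lower in 4 of 12, among them RPN1, a subunit of the oligosaccharyltransferase, at −2.45 ± 0.21 at 72 h (adjusted p = 9.96e-05) and −1.06 ± 0.21 at 120 h, with STT3A at −0.66 ± 0.14 and OSTC at −0.72 ± 0.12. RPN1 had been at −0.68, −1.25 and −1.39 at 16, 24 and 32 h. Other genes of ER-associated degradation were lower in 2 of 14 and higher in 1, which were SELENOS (−0.87 ± 0.12), the ubiquitin-conjugating enzyme UBE2J1 (−0.76 ± 0.15) and EDEM2 (0.41 ± 0.11). In the PERK arm 3 of 10 fell and 1, CEBPB, rose (median 0.16, mean −0.03, which differ in sign), with EIF2AK3 at −0.74 ± 0.14, the transcription factor ATF4 at −0.74 ± 0.10 and its target TRIB3 at −0.70 ± 0.11.

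Of 8 other signalling genes 2 fell and 2, WFS1 and CREB3, rose (median 0.19, mean −0.01). CREB3L2, an ER-bound transcription factor, was at −1.30 ± 0.19, MBTPS2, the protease that makes the second cut in ATF6, at −0.51 ± 0.12, and WFS1, an ER membrane protein, at 0.93 ± 0.23. The cytosolic heat shock genes, which answer to another stress pathway, had 1 of 10 that fell (STIP1, −0.67 ± 0.16) and 1 that rose (HSPH1, 0.56 ± 0.10), at a list median of 0.02, and BAG3 was at 0.32 ± 0.11 (adjusted p = 0.0536). Differences between lists were not tested, and all shares are to be read against the 19.8% lower and 17.4% higher of all genes.

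**Figure D5:**
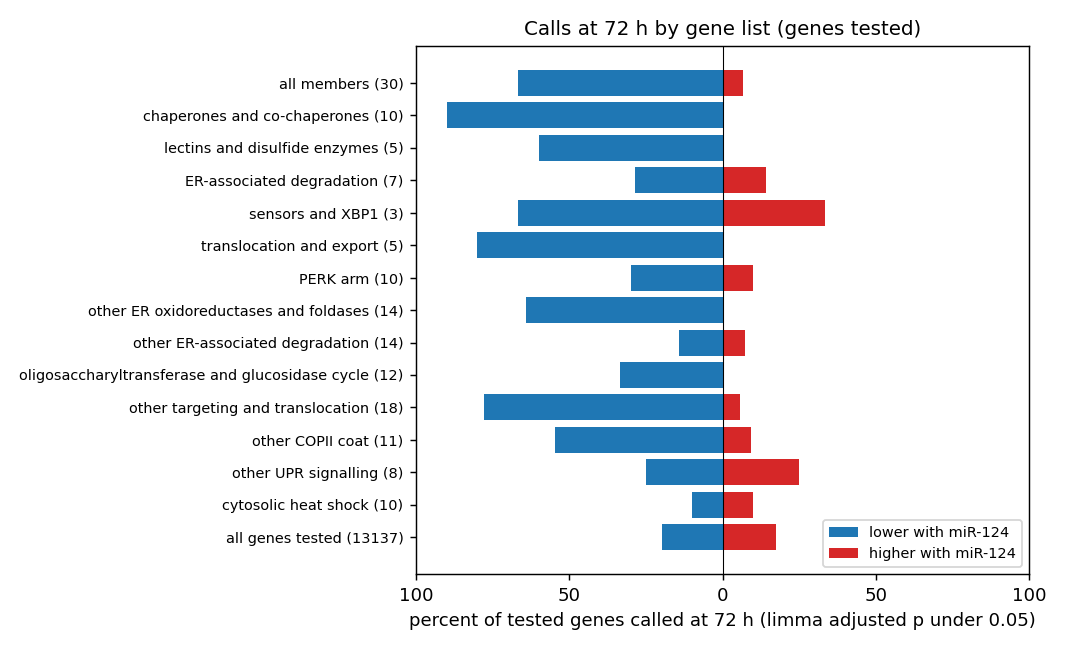
Share of tested genes called lower (blue, to the left) or higher (red, to the right) with miR-124 at 72 h (x axis, percent) in each gene list (y axis, number tested in brackets). The longest blue bars are those of the chaperones (9 of 10), translocation and export (4 of 5) and other targeting and translocation (14 of 18), and the cytosolic heat shock genes are near even.

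Members with and without an ER stress element in a listed promoter both included genes that fell. Of 11 tested members with either element 8 were lower at 72 h and 0 higher, at a median ratio of −0.88. Of 15 tested with a promoter but neither element 9 fell and 2 rose, at a median of −0.46. Of the 4 with no listed promoter 3 fell and 0 rose, at a median of −0.65. Over all genes 19.8% were lower and 17.4% higher, and differences between these groups were not tested. SDF2L1 and HSPA5 are in the group with an element and MANF and DNAJB9 in that without. CALR, PDIA6 and HYOU1, with an element, did not pass by the chosen probe sets.

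A measure of RNA quality, the 3′ signal minus the 5′ signal, was higher with miR-124 than in the control from 8 h on. The gap was wider from 24 h. A higher value means less 5′ signal relative to 3′ signal, not better RNA. For ACTB the 3′ probe set minus the 5′ probe set was 0.561 with miR-124 and 0.271 in the control at 24 h, and 0.418 and 0.278 at 32 h. It was 0.357 and 0.237 at 72 h, and 0.411 and 0.102 at 120 h. For GAPDH the same times gave 0.286 and 0.201, 0.248 and 0.188, 0.301 and 0.145, and 0.199 and 0.0311. At these 4 times both genes were higher with miR-124. So they were at 8 h (0.357 and 0.314 for ACTB, 0.271 and 0.247 for GAPDH). At 16 h the values were 0.357 and 0.315 for ACTB and 0.199 and 0.177 for GAPDH. The part of this difference in the results was not tested. In bulk RNA, fewer cells expressing a gene and less RNA per cell cannot be told apart, and RMA does not show a change in total messenger RNA per cell.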

How the data were processed

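Gene expression was measured on 14 one-colour arrays of HepG2 cells. The authors deposited log2 values for every probe set, computed with RMA per the submitters' processing notes, whose version and settings are not given in the sources used here. That the scale is log2 rests on the range of the values, 2.93 to 14.4. Of 54675 probe sets 41091 had 1 gene symbol, and 1801 with several were not used. Gene identifiers of 41037 matched the RefSeq gene table, and no symbol changed. The probe set with the highest mean was used for each of 19775 genes, and 13137 genes with a mean above the median of all probe sets (6.19) were tested. Precision is limited by the number of arrays.

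Two-sided tests were made with lmFit and eBayes of limma 3.58.1 in R 4.3.3. A gene was called at a p under 0.05 after Benjamini-Hochberg adjustment over all genes tested. Time was a block, since arrays are paired by their labelled time. Deviations from the arm means correlated at 0.21 to 0.48 within the 7 pairs. The fits were: transfection over all times (6 residual degrees of freedom), within the early, middle and late windows (4), within the early and middle windows and at 72 h and 120 h singly (3), and a slope on log2 time in the control (5). Values after ± are standard errors from these fits. The p-values reflect nothing beyond the spread between these arrays, which may be technical. On simulated arrays of 13137 genes, 86% of changes of 1 on the log2 scale and 99% of changes of 2 were recovered for the effect at 72 h. For the 120 h minus 72 h difference the shares were 50% and 99%. The simulated arrays had the same error at all times, scaled from the ratios up to 32 h. These shares therefore hold only if the 72 h and 120 h pairs vary like the earlier ones, which the simulation cannot check.

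The members and lists were chosen with earlier results of these data known. All members are named, and of each further list the 3 genes with the smallest p at 72 h. Alternatives changed the filter, the probe set rule, the scaling, the moderation, the minimum fold, the block and the times used. Python 3.11.15 and matplotlib 3.10.9 drew the plots.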

Additional observations from a re-analysis of the deposited data

Results flagged for a closer look

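At 72 h the paired ratio of 7 members stood far from their ratios at the other 6 times, by the gap to the nearest time as a share of the whole range, above Dixon's critical value for 7 values. The share was 0.82 for MANF, 0.77 for HSPA5, 0.72 for SDF2L1, 0.71 for CRELD2, 0.70 for XBP1, 0.64 for DNAJC10 and 0.63 for DNAJC3, and 0.81 for the median of the 30 tested members. Chance alone gives such a value in about 1 in 20 series, 30 members were examined, and the 7 times are not replicates.

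For 11 members the effect at 120 h differed from that at 72 h by the limma test of the difference. On the log2 scale the difference was 2.06 for SDF2L1, 1.36 for MANF, 1.31 for DNAJB9, 1.17 for CRELD2, 1.07 for DNAJC3, 1.01 for HSPA5, 0.99 for SEC24D, 0.95 for SSR1, 0.91 for XBP1, 0.77 for DNAJB11 and 0.62 for DNAJC10.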

How the results depend on the processing

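Over 52 calls of single members, 639 recomputed values kept their direction, 524 of them stayed called and 115 did not. Of all genes, 120 were called over all times, 1028 in the middle window, 3821 in the late window, 4892 at 72 h, 3052 at 120 h, 1414 in the difference and 1075 on the control slope. With a 1.5-fold minimum these were 72, 458, 2062, 3050, 1673, 1359 and 665, and the members called were 0 over all times (1 in the chosen setting), 0 in the middle window (3), 5 late (11), 13 at 72 h (22) and 1 at 120 h (4). With no filter on low values or with arrays centred on their median, 1 gene and 0 members were called over all times. With the mean of all probe sets these were 0 and 0, the middle window had 0 members, the late window 7, the difference 924 genes and the control slope 1 member.

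Without the replicate block (time as a pair), 328 genes were called over all times, 630 genes and 4 members in the difference and 2 members at 120 h. At other contrasts the block left the counts within 1.5 times. A window on its own arrays gave 2164 genes and 7 members in the middle and 469 genes and 0 members late. Leaving out each time in turn gave 0 to 974 genes and 0 to 2 members over all times, 0 to 2198 and 0 to 7 in the middle window, 2861 to 4892 and 4 to 22 late, 4138 to 5242 and 21 to 23 at 72 h, 2046 to 3655 and 2 to 4 at 120 h, 574 to 2029 and 7 to 14 in the difference and 229 to 1112 and 0 to 1 on the slope. The larger share turned in the middle window without 72 h or 120 h (1121 higher, 1077 lower) and on its own arrays (1090 and 1074), in the late window without 120 h (2289 and 2603) and on the slope without 4 h (267 and 208). The cause was not tested. With a time left out, counts at 72 h, 120 h and in the difference moved only through the error borrowed from earlier times. They are no check on the single pairs at 72 h and 120 h, which, with no repeat of a time, are the main limit.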
